A study of Vitis amurensis with 6 samples.

Results

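The 200 genes that took the most reads in cold-treated EV callus of Vitis amurensis, the Amur grape, are described here, out of 16645 genes in the deposited table. They were chosen as the 200 genes with the highest mean CPM (the reads of a gene as a share of all reads its library has on the genes of the table, scaled by 1e6) over the 3 EV libraries. The EV values therefore chose the members, and levels in EV and every comparison that uses them are given as a description. Callus is undifferentiated plant tissue kept in culture, and here it came from petiole segments, was selected on B5 medium with kanamycin and was kept in the dark at 25 °C. EV is the labels' name for 3 libraries with the genotype Envelope, the other 3 libraries come from callus overexpressing VaWRKY12, and both groups were held at 4 °C for 24 hours, 15 days after transfer to new medium. No library was left without cold. The labels do not give the promoter of the transgene, the number of callus lines or whether replicates were separate cultures, so the spread behind each p-value is that of these libraries and may be technical.

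WRKY proteins are plant transcription factors named after a conserved run of amino acids, and many take part in responses to stress and infection. The level of a messenger RNA follows from how fast it is made and how fast it is broken down. In most cells a small part of the genes supplies a large part of the messenger RNA, and in plant cells these genes commonly include those for ribosomes, translation factors, core metabolism and stress proteins. No names come with the identifiers in the files, so the roles of the members are not given, and genes are called by their rank in mean EV CPM (rank 1 is the highest). For the same reason the level of VaWRKY12 itself and markers of callus or of other tissue were not checked here. In bulk RNA, fewer cells with a transcript and less transcript per cell cannot be told apart.

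The libraries held 8795632 to 14966502 reads on the genes of the table. The members took 16.4%, 15.7% and 15.9% of the reads in EV replicates 1, 2 and 3 and 13.9%, 15.1% and 15.8% in VaWRKY12 replicates 1, 2 and 3. VaWRKY12 replicate 3 lay level with EV replicate 2, and the other VaWRKY12 libraries lay below all EV libraries. The exact 95% binomial interval, which covers counting error only, ran from 13.91% to 13.95% in VaWRKY12 replicate 1. Those of VaWRKY12 replicate 3 (15.74% to 15.78%) and EV replicate 2 (15.70% to 15.74%) met. Intervals that meet do not show that 2 libraries are alike, and the difference between these was not tested. The mean was 16.02% ± 0.359 in EV and 14.9% ± 0.926 in VaWRKY12 (SD, n = 3 each). The first 10 members took 2.33% ± 0.121 in EV and 1.93% ± 0.227 in VaWRKY12, and the first 100 took 10.6% ± 0.229 and 9.64% ± 0.659. The 200 genes that follow in rank, called the next 200 genes below, took 7.83% ± 0.131 and 7.61% ± 0.220.

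A choice made in EV favours EV, so shares were also taken in other ways. When each EV library in turn was kept out of the choice, the 200 genes chosen from the other EV libraries took 16.3%, 15.6% and 15.9% of its reads (EV replicates 1, 2 and 3), close to the values above. On the same lists the mean share in VaWRKY12 was 14.9%, 15.0% and 14.9%. EV still chose these lists, so they favour EV as a group. Taking each library's own ranking treats all libraries alike. The 200 most abundant genes of each library's own ranking took 16.5%, 15.8% and 15.97% in EV and 14.4%, 15.6% and 16.8% in VaWRKY12. VaWRKY12 replicates 1 and 3 gave the lowest and the highest of the 6 values, and the mean difference of -0.508 percentage points was within the spread (exact two-sided permutation test, p = 0.6, where 0.1 is the smallest value possible). Without VaWRKY12 replicate 1 the difference was 0.0715. Reads were spread over many genes in each library, with 1546 to 1754 genes needed to hold 50% of them.

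**Figure D1:**
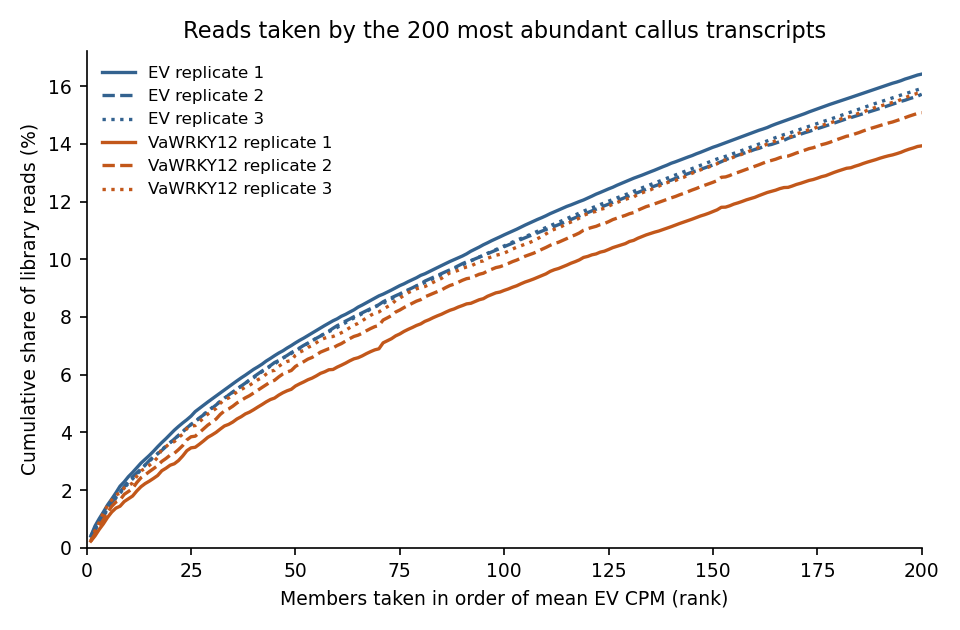
Cumulative share of library reads (y axis, %) over the 200 members in order of mean EV CPM (x axis, rank), with 1 line for each of the 6 libraries. VaWRKY12 replicate 1 ends lowest at 13.9% and EV replicate 1 highest at 16.4%.

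Level fell off steeply over the first members and slowly afterwards. Rank 1 was GSVIVT01022705001, a gene of 5 exons and 1005 coding bases on chromosome 2 (minus strand, 15324167 to 15325973; positions are those of the file, and its genome build is not stated in the material used here). It stood at 4096, 4081 and 3687 CPM in EV and at 2327, 2394 and 2420 CPM in VaWRKY12, so that all VaWRKY12 libraries lay below all EV libraries. Rank 2 was GSVIVT01037740001, a gene of 2 exons and 285 coding bases on chromosome 19 (plus strand, 7399712 to 7400109). It had 3476, 2743 and 2369 CPM in EV and 1804, 2473 and 3529 CPM in VaWRKY12, with the highest and the lowest of the 6 values both in VaWRKY12. Rank 3 was GSVIVT01007521001, a gene of 12 exons and 1032 coding bases on chromosome 17 (plus strand, 12807152 to 12811693). Its levels were 2517, 2287 and 2651 CPM in EV and 2236, 2612 and 2859 CPM in VaWRKY12, and the groups overlapped. The median member had a mean of 644 CPM in EV, against 24.4 CPM for all genes in the table.

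At the threshold the members run into the rest without a gap. Rank 200, on chromosome 11 from 18105273 to 18111005, had 320, 672 and 414 CPM in EV, and the gene that just missed the list, GSVIVT01000187001 on chromosome 7 from 15983300 to 15984998, had 527, 384 and 494 CPM. Both had a mean of 468.6 CPM. In single EV libraries 188, 184 and 188 members (replicates 1, 2 and 3) were among that library's own 200 highest genes, and 167 members were so in all 3.

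CPM does not take account of gene length, so a long gene needs fewer molecules to enter the list. Levels between genes are compared here as RPKM (reads per kilobase of coding length and per 1e6 reads). The members' mean RPKM in EV ran from 73.5 to 10044, with a median of 653 against 22.6 for all genes. Among the members, ranks 2, 7 and 4 were highest with 10044 ± 1975, 8186 ± 646 and 7153 ± 172 RPKM in EV (SD, n = 3), and their coding lengths were 285, 243 and 321 bases. Over all genes these stood at 1, 2 and 4 by RPKM, and rank 1 by CPM stood at 8 with 3935 ± 231. Of the members, 101 were also among the 200 genes highest by RPKM. These had a median coding length of 648 bases, against 1500 bases for the 99 that were not.

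**Figure D2:**
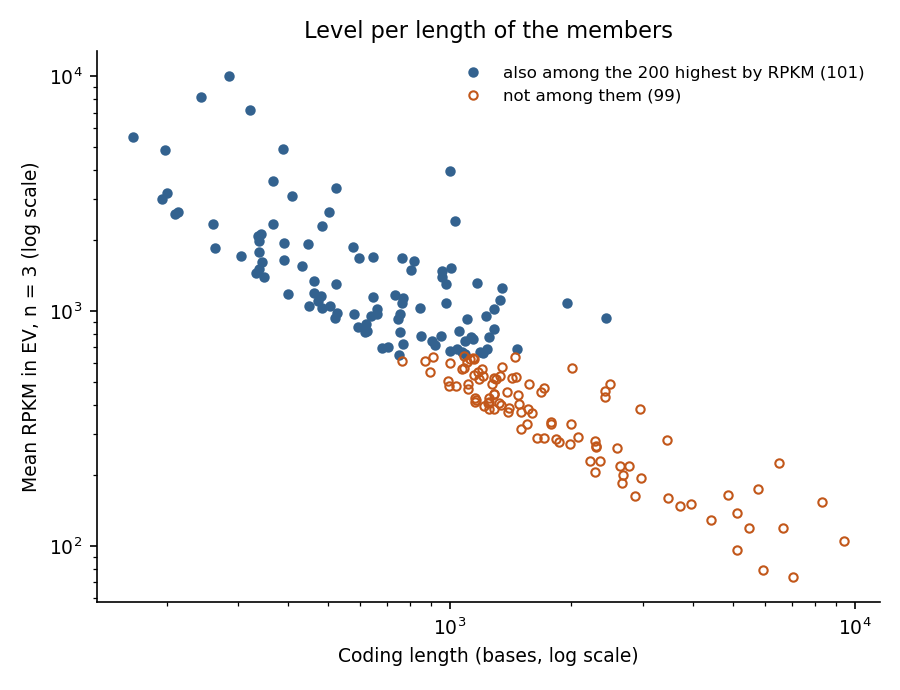
Mean RPKM in EV (y axis, log scale, n = 3) against coding length (x axis, log scale, bases) for each member. Filled points are the 101 members also among the 200 highest genes by RPKM and open points the other 99. The empty lower left follows from the choice by CPM, which a short gene passes only at a high RPKM.

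In coding length the members lay near the table as a whole. Their median was 1117.5 bases (quartiles 646 and 1559), against 1080 bases for all genes and 1291.5 for the next 200 genes. Short genes were as common among them as elsewhere: 46 (23%) had under 600 coding bases, against 22.9% of all genes. Very long ones were more frequent than in the whole table, with 10 members (5%) over 5000 bases against 1.23% of all genes. The next 200 genes lay between, with 3%. The shortest member was rank 46, with 165 bases, and the longest was rank 41, with 9429 bases in 60 exons on chromosome 9. Rank 41 had 858, 1038 and 1058 CPM in EV but only 104 ± 11.7 RPKM (SD, n = 3).

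The median exon number was 6 in the members and in all genes, and 8 in the next 200 genes. Only 2 members had a single coding exon (1%, against 2.78% of all genes), ranks 39 and 101, and 14 had more than 20 (7%, against 9.5% of the next 200 genes and 3.29% of all genes). Introns were shorter in the members: the part of the gene span outside coding exons had a median of 2128.5 bases, against 2992 in all genes and 3591 in the next 200 genes. That part exceeded 10 kb in 18 members (9%) and in 16.6% of all genes. These are descriptions over genes, with no test.

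Many counts in the table are not whole numbers. A fractional count in at least 1 library was present in 160 members (80%, exact 95% binomial interval 73.8% to 85.3%), against 39.8% of all genes. The members are a full list chosen by their reads and not a sample of genes, so nothing is read from the interval. The next 200 genes stood at 81%. In 26 members (13%) all 6 counts were fractional, against 8.5% of the next 200 genes and 4.21% of all genes, and 12 of the 26 were within the first 50. Of the 524 fractional values of the members, 54.8% ended in 0.5 (within 0.005), and over all genes 55.1% did. The material used here does not say how the fractions were made, so values of members that carry them are uncertain where reads were divided between gene models.

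By position, 189 members lay on the 19 numbered chromosomes and 11 (5.5%) on sequences named Un or random, against 8.34% of all genes. Among the numbered chromosomes, members per 100 genes of the table were highest on chromosomes 5, 6 and 3 (2.05, 1.96 and 1.90, from 19, 18 and 12 members) and lowest on chromosomes 12 and 15 (0.413 and 0.366, from 3 and 2 members). Neighbouring members less than 50000 bases apart formed 11 pairs with 20 members in all, against 9 pairs with 18 genes in the next 200. In 6 of the 11 pairs both members held their level with VaWRKY12 as defined next. In the closest pair, ranks 51 and 145 on the minus strand of chromosome 6, only 44 bases separate the coding parts. Both had fractional counts in 3 libraries, and their log2 fold changes were 0.01 and 0.06.

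The study's comparison asks how VaWRKY12 changes expression in the cold. With VaWRKY12, 36 members were lower and 6 were higher than in EV, 114 held their level and 44 were undecided. A gene was called at an adjusted p under 0.05 (edgeR quasi-likelihood test over all 16317 genes that passed the filter on low counts, which all 200 members did, Benjamini-Hochberg adjusted). It held where it was not called and the 95% interval of its log2 fold change lay within -0.5 to 0.5, and it was undecided otherwise. Of all genes tested 6.16% were lower, 5.75% higher, 42.1% held and 46.0% undecided, against 18%, 3%, 57% and 22% of the members. The next 200 genes were close to the members, with 14% lower, 2% higher, 65% held and 19% undecided. Since EV chose the members and EV is part of the contrast, no weight can be put on the excess of lower members as it stands. The median log2 fold change was -0.05 in the members, -0.02 in the next 200 genes and 0.01 in all genes.

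The lists were also made from 1 library and the contrast fitted without it, alternatives added after seeing the data. With 200 genes chosen on 1 EV library alone and the contrast fitted to the other 5 libraries, 24, 22 and 22 genes were lower and 1, 4 and 0 were higher (chosen on EV replicate 1, 2 and 3, edgeR adjusted p). The same fits called 3.57%, 3.19% and 4.18% of all genes lower and 2.78%, 2.86% and 3.32% higher, against 12%, 11% and 11% and against 0.5%, 2% and 0% of the chosen genes. Beside the 0, 10 genes were higher at an unadjusted p under 0.05 in edgeR and other tools were not run. With 200 genes chosen on 1 VaWRKY12 library and that library left out of the fit, 12, 12 and 20 were lower and 15, 6 and 12 higher. There the fits called 4.04%, 3.88% and 6.03% of all genes lower and 4.00%, 3.50% and 5.87% higher, against 6%, 6% and 10% and against 7.5%, 3% and 6% of the chosen genes. The lists from single EV libraries share 184 to 188 genes with the members, and the fit still holds the other EV libraries, whose values chose the members. These counts are therefore a description too: lower genes outnumbered higher ones in lists made from EV libraries, and in those from VaWRKY12 libraries they did so for replicates 2 and 3 and not for replicate 1.

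**Figure D3:**
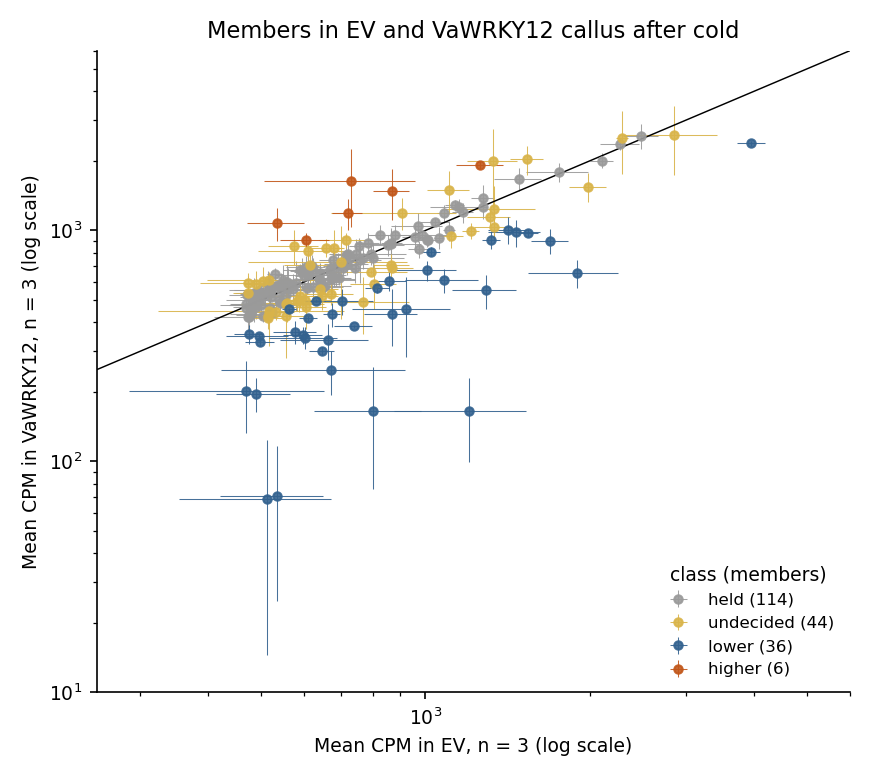
Mean CPM of each member in VaWRKY12 (y axis, log scale) against EV (x axis, log scale), with SD bars (n = 3 each) and the line of equal level. Of the 200 members, 36 are lower, 6 higher, 114 held and 44 undecided, and the largest falls are those of ranks 153, 168, 26 and 59.

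The lower members together held 3.59%, 3.51% and 3.20% of reads in EV and 1.89%, 2.05% and 1.78% in VaWRKY12. The 6 higher members held 0.449%, 0.509% and 0.458% in EV and 0.774%, 0.866% and 0.825% in VaWRKY12. In sum the lower members fell by 15257 CPM and the higher ones gained 3495 CPM. The held members stood at 8.32%, 8.11% and 8.48% in EV and 7.90%, 8.52% and 8.86% in VaWRKY12, with overlap between the groups. By groups of 50 ranks, 14, 9, 6 and 7 members were lower and 21, 29, 31 and 33 held. The ranks come from EV levels that are also 1 side of the contrast, so nothing is read from this order.

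In all 36 lower members every VaWRKY12 library lay below every EV library, and this was so for 61 members in all (30.5%, against 14.6% of genes tested). The opposite held for 18 members (9%, against 18.1%). Log2 fold changes of the lower members ran from -2.95 to -0.32 with a median of -0.77, and 13 fell by at least 1 (6.5% of members, against 2.57% of genes tested). Only rank 71 rose by at least 1 among the members called (0.5%, against 2.82%). EV chose the members, which favours falls over rises, so no weight can be put on any of these shares. The largest fall was in GSVIVT01000938001, rank 153, a gene of 6 exons and 870 coding bases on chromosome 1 (minus strand, 22072631 to 22073978). It had 534, 648 and 421 CPM in EV and 57.5, 122 and 33.0 CPM in VaWRKY12. No library of one group came near the other, and the log2 fold change was -2.95 (SE 0.420, edgeR adjusted p = 0.00492).

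Another 3 members fell by more than 2 on the log2 scale. Rank 26, on chromosome 3 from 8895286 to 8912074, went from 1573, 1075 and 958 CPM to 199.2, 206 and 89.2 CPM. Its log2 fold change was -2.90 (SE 0.325, edgeR adjusted p = 0.00248), and by mean VaWRKY12 CPM it stood at rank 1395. Rank 59, on chromosome 1 from 6744572 to 6746161, had 805, 980 and 624 CPM in EV and 108, 269 and 120 CPM in VaWRKY12, and it changed by -2.30 on the log2 scale (SE 0.350, edgeR adjusted p = 0.00596). VaWRKY12 replicate 2 was the highest of its group there and in ranks 153 and 168, over 1.5 times both others. Rank 168, on chromosome 5 from 1049450 to 1053945, had 468, 688 and 380 CPM in EV and 69.6, 123 and 14.2 CPM in VaWRKY12. It changed by -2.93 (SE 0.611, edgeR adjusted p = 0.0194), and the adjusted p was 0.0554, 0.0586 and 0.0598 without EV replicate 1, EV replicate 2 and VaWRKY12 replicate 1.

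Among the first 10 members, ranks 1, 8 and 10 were lower. Rank 1 fell by 0.75 on the log2 scale (SE 0.113, edgeR adjusted p = 0.00571). Rank 8, a gene of 387 coding bases on chromosome 6 from 5617607 to 5622519, had 2306, 1732 and 1651 CPM in EV and 664, 737 and 560 CPM in VaWRKY12. Its log2 fold change was -1.56 (SE 0.163, edgeR adjusted p = 0.00216). Rank 10 had 1794, 1739 and 1548 CPM in EV and 959, 974 and 775 CPM in VaWRKY12. Ranks 1 and 8 had fractional counts in all 6 libraries, and rank 10 in 2. Of the 40 members with whole counts throughout, 9 were lower (22.5%), 0 higher and 22 held (55%), and of all whole-count genes tested 5.82% were lower, 6.36% higher and 36.1% held. The next 200 genes were like the members here: of 38 with whole counts, 6 were lower (15.8%), 0 higher and 24 held (63.2%). Beside the 0 in the members, edgeR fitted to whole-count genes alone also gave 0 higher members, with 2 at an unadjusted p under 0.05.

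**Figure D4:**
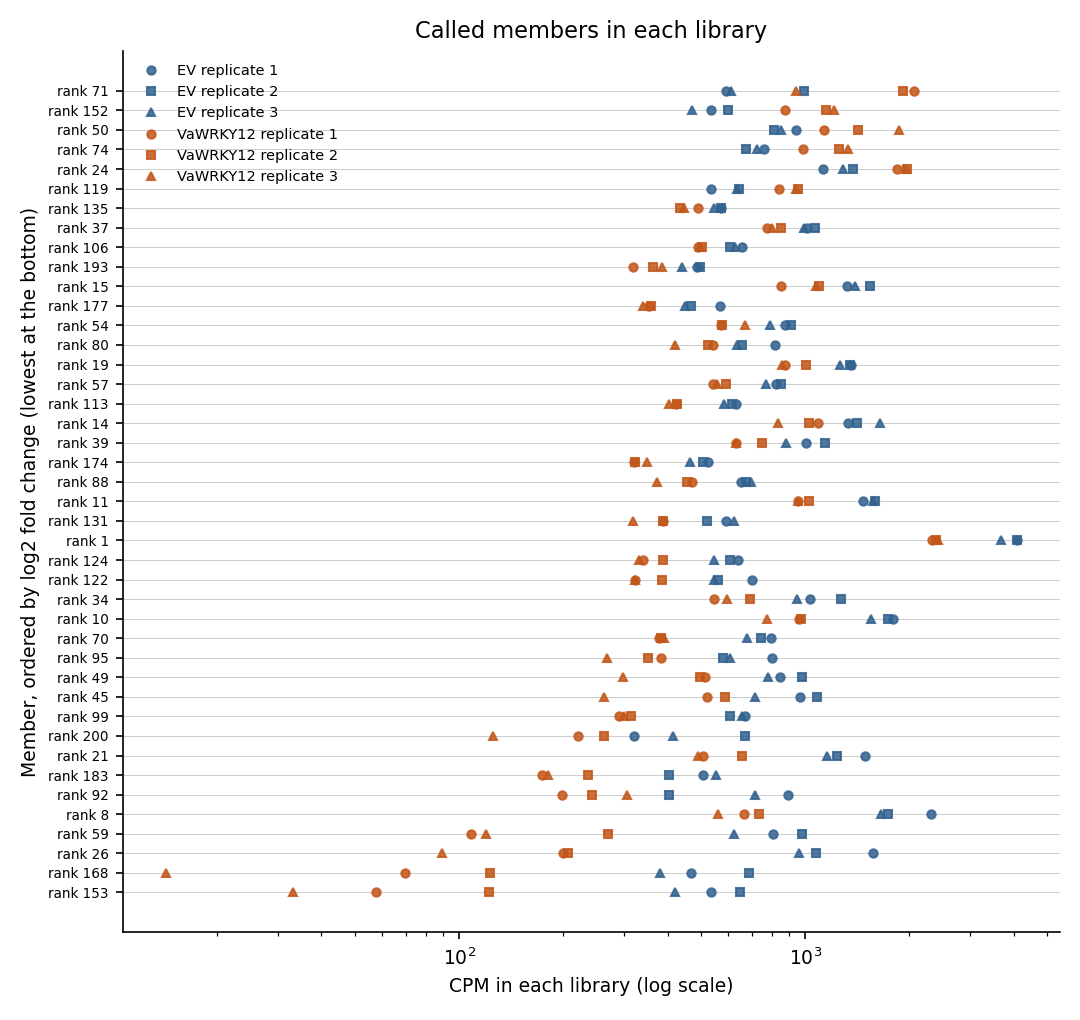
CPM in each library (x axis, log scale) of the 42 called members, ordered by log2 fold change with the lowest at the bottom and labelled by rank in mean EV CPM. Blue marks are EV and orange marks VaWRKY12, with 1 shape per replicate, and the colours overlap only for rank 71.

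The 6 higher members were ranks 24, 50, 71, 74, 119 and 152. The most abundant was GSVIVT01015895001, rank 24, a gene of 3 exons and 408 coding bases on chromosome 3 (plus strand, 19020610 to 19021323), with 1126, 1372 and 1286 CPM in EV and 1842, 1971 and 1957 CPM in VaWRKY12. It rose by 0.59 on the log2 scale (SE 0.113, edgeR adjusted p = 0.0147), and the adjusted p was 0.0593, 0.0591 and 0.0560 without EV replicate 1, EV replicate 3 and VaWRKY12 replicate 2. GSVIVT01018517001, rank 152, had the largest rise of those whose groups did not overlap. This gene of 17 exons and 1338 coding bases, on chromosome 16 (minus strand, 13956454 to 13962522), had 535, 598 and 470 CPM in EV and 875, 1151 and 1208 CPM in VaWRKY12. Its log2 fold change was 0.99 (SE 0.159, edgeR adjusted p = 0.00703). Rank 152 was also the only higher member called without each library in turn.

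Rank 71, on chromosome 2 (minus strand, 5141876 to 5142274), was the higher member whose groups overlapped. It had 591, 990 and 610 CPM in EV and 2060, 1913 and 942 CPM in VaWRKY12, and rose by 1.14 on the log2 scale (SE 0.2999, edgeR adjusted p = 0.0454). VaWRKY12 replicate 3 lay below EV replicate 2. The adjusted p ran from 0.112 to 0.149 without EV replicate 1, EV replicate 3, VaWRKY12 replicate 1 or VaWRKY12 replicate 2, and from 0.00705 to 0.0402 without the other libraries.

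The 114 held members included ranks 3, 5, 6 and 9. Rank 5, a gene of 15 exons on chromosome 7, had 2440, 2311 and 2073 CPM in EV and 2225, 2479 and 2398 CPM in VaWRKY12, with a log2 fold change of 0.04 (95% interval -0.24 to 0.31). Rank 6, a gene of 9 exons on Un, had 2055, 2037 and 2227 CPM in EV and 1867, 2167 and 1991 CPM in VaWRKY12, with a log2 fold change of -0.09 (95% interval -0.35 to 0.17). Groups overlapped in 97 of the held members. In 11 all VaWRKY12 libraries lay below all EV libraries and in 6 above them, so a held level can still include a small shift. Without each library in turn, 68 of the 114 held in every fit. Of the 14 members with more than 20 exons 12 held (85.7%), as did 89.5% of such genes among the next 200 and 62.8% of such genes tested. Held members had a median of 8 exons and 3012 intron bases, and lower members 4.5 exons and 1181 bases. Over all genes tested the medians were 7 exons and 4813 bases in held genes and 6 and 2024 in lower genes.

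Ranks 2 and 4 were among the 44 undecided members, and in both VaWRKY12 replicate 3 was the highest of the 6 libraries. Rank 4, of 321 coding bases on chromosome 5, had 2320, 2233 and 2335 CPM in EV and 1936, 2246 and 3380 CPM in VaWRKY12, a log2 fold change of 0.12 (95% interval -0.37 to 0.61). For rank 2 the log2 fold change was -0.15 (95% interval -0.75 to 0.45). All VaWRKY12 libraries lay below all EV libraries in 14 of the undecided members (31.8%) and above them in 7 (15.9%). The shares were 7.89% and 13.2% of the undecided among the next 200 genes, and 11.7% and 17.02% of all undecided genes. Here too the choice on EV favours values below EV, so nothing is read from the difference. Members under 600 coding bases made up 36.4% of the undecided and 18.4% of the held, and over all genes tested such genes made up 28.4% and 18.2%.

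In rank order fewer members kept their place in VaWRKY12 than in EV libraries kept out of the choice. Of the members, 167, 171 and 153 were among the own 200 highest genes of VaWRKY12 replicates 1, 2 and 3. With an EV library kept out of the choice, 181, 176 and 183 of the chosen genes were among its own 200. Other EV libraries chose those lists, which favours EV as a group, so the difference is a description. By mean VaWRKY12 CPM 32 members fell out of the first 200, of which 21 were lower, 6 held and 5 undecided, and 17 had an EV rank over 150. The 32 genes that took their places had EV ranks down to 716 with a median of 247, and 6 of them were called higher. The median absolute change was 24 ranks, and the farthest drop was that of rank 168, to 4055.

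In the order of the top, rank 1 was first in all EV libraries and in VaWRKY12 replicate 1. Rank 3 was first in VaWRKY12 replicate 2 at 2612 CPM, and rank 2 in VaWRKY12 replicate 3 at 3529 CPM. Of the first 10 members, 7 remained among the first 10 by mean VaWRKY12 CPM, and of the first 50 members 40 remained among the first 50. By the VaWRKY12 mean, rank 8 fell to 90 and rank 10 to 47, while rank 24 came up to 9 and rank 71 to 12.

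**Figure D5:**
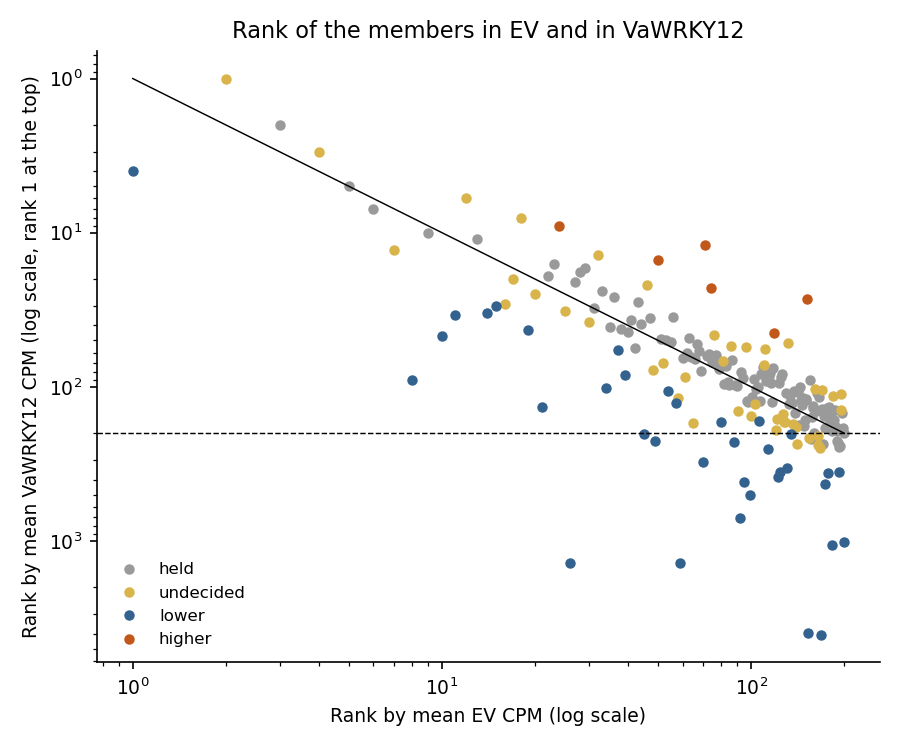
Rank of each member by mean VaWRKY12 CPM (y axis, log scale, rank 1 at the top) against its rank by mean EV CPM (x axis, log scale). The solid line marks equal rank and the dashed line rank 200, below which 32 members lie, 21 of them called lower.

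Replicates of the members spread more in VaWRKY12 than in EV, as did those of the next 200 genes and of all genes. The median coefficient of variation was 7.61% in EV and 10.8% in VaWRKY12, against 6.30% and 9.23% for the next 200 genes and 10.6% and 12.5% for all genes. EV replicate 1 was the highest of its group in 95 members and EV replicate 2 the lowest in 98. VaWRKY12 replicate 3 was the highest of its group in 114 members and VaWRKY12 replicate 1 the lowest in 126. Of the members, 9 had less than 1 part in 1.5 of both other VaWRKY12 libraries in replicate 3, namely ranks 26, 45, 49, 71, 81, 141, 153, 168 and 200, of which 6 were lower. Ranks 4, 18 and 164 had over 1.5 times both others in that library. Without VaWRKY12 replicate 3, 40 members were lower, 6 higher and 121 held, and the median log2 fold change of the members was -0.13.

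Single libraries changed which members passed. Of the 36 lower members, 21 were called without each library in turn and 2, ranks 80 and 135, in none of these fits. Without EV replicate 1 there were 23 lower and 1 higher members, and without EV replicate 2 there were 23 lower and 4 higher. Higher members numbered 1 without EV replicate 3 and 1 without VaWRKY12 replicate 2. These fits rest on 5 libraries. The authors' deposited table calls 33 members lower and 6 higher at a false discovery rate under 0.05. The share of all genes it calls is not given here, so these counts serve only to compare calls on the members. All 33 were lower here too, 5 of the 6 were higher here, 4 members were called here only and 1 in the authors' deposited table only.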

How the data were processed

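Per the labels' protocols, RNA of cold-treated callus was sequenced in 6 libraries, 3 per group. Per the submitters' processing notes, the tools were edgeR, HISAT2 2.0.5 and Trimmomatic. The counter, strand setting, genome build and annotation: not given in the sources used here. The deposited table holds reads per gene, not normalised and partly fractional (whole within 1e-06 otherwise), taken as estimated counts. The deposited RPKM values were recomputed to within 4.7e-06. The authors' deposited log2 fold change, mean log2 CPM, F score and p-value with its false discovery rate were used only where named. Lengths equal the summed exons and are multiples of 3 in 100% of genes, hence coding length.

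The members and lists were chosen with earlier results of these data known. CPM used column sums. Reads were rounded and fitted with edgeR 4.0.16 in R 4.3.3 (filterByExpr, minimum count 10; 16317 genes kept, 328 left out; TMM factors 0.979 to 1.03; no covariate); standard errors came from the F statistic. The fit was tested on simulated data. DESeq2 1.42.0, limma 3.58.1 (voom), other scalings, other choices of members and left-out libraries were alternatives. Named genes were the most abundant called member and the one with the largest change without overlap in each direction, the first 3 members and the genes at the threshold (rank 200 without its identifier, since only 2 fallen identifiers are printed). Other members were picked by rank or after their values were seen. With counts of 3 reads at 0.2 to 0.341 CPM, depth did not limit members.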

Additional observations from a re-analysis of the deposited data

How the results depend on the processing

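The number of lower members was 15 with members chosen on VaWRKY12 libraries, 23 with 100 members, 8 with whole-read genes only (40 members) and 13 with a log2 change of 1 or more required. It ran from 23 to 40 without single libraries (40 without VaWRKY12 replicate 3, 23 to 26 without each of the other libraries; each fit has fewer samples). Higher members numbered 12, 4, 0 and 1 under the same 4 settings and 1 to 8 without single libraries. Held members numbered 50 with 100 members, 21 with whole-read genes only and 78 to 121 without single libraries. The smaller sets give smaller counts by construction. With genes chosen on 1 library and tested without it, alternatives added after seeing the data, lower genes numbered 22 to 24 from EV libraries and 12, 12 and 20 from VaWRKY12 libraries, and higher genes 0 to 4 and 15, 6 and 12. The median log2 fold change was 0.030 with members chosen on VaWRKY12 libraries, 0.028 by RPKM, -0.14 with whole-read genes only, 0.073 with genes chosen on VaWRKY12 replicate 1, and -0.13 to -0.02 without single libraries; the cause of the changed sign was not tested. The share of reads was 15.4% in EV and 15.5% in VaWRKY12 with members chosen on VaWRKY12 libraries, so the lower share in VaWRKY12 was not seen with that choice. A choice on VaWRKY12 favours VaWRKY12 as a choice on EV favours EV, so neither can show whether the groups differ. In EV and VaWRKY12 the share was 12.7% and 12.04% by RPKM, 10.6% and 9.64% with 100 members and 3.01% and 2.64% for whole-read members. The difference in the share of each library's own 200 genes ran from -1.10 to 0.0715 percentage points without single libraries and reversed without VaWRKY12 replicate 1. Members among the own genes of VaWRKY12 libraries averaged 163.7, against 76.7 of 100 and 180.0 for held-out EV libraries. Chosen by RPKM, the members had a median coding length of 445.5 bases, 4 exons and fractional counts in 70%.

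Scaling (RLE, upper quartile, library totals, TMM without the members), the filters, limma-voom and DESeq2 moved none of the counts by more than 1.5 times, and no called member was called in the opposite direction in 16 alternative fits. Libraries with the same replicate number had correlations of deviations of -0.063, 0.325 and 0.175, and those with unlike numbers -0.3485 to 0.211. With 3 libraries per group these values cannot show whether the numbers pair the libraries. With the number as a block 33 members were lower, 7 higher and 112 held. The share of all genes called in that fit is not given here, so these counts are only set beside those of the main fit.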
